A study of Mus musculus with 4 samples.

Results

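The transcription factor NRF2, its inhibitor KEAP1 and 8 genes of the antioxidant response were followed in mouse liver cancer cells with and without overexpression of UBXN9. The genes were Nfe2l2, which encodes NRF2, Keap1, Hmox1, Nqo1, Osgin1, Gclc, Gclm, Txnrd1, Srxn1 and Gsr. They were chosen by name, with earlier results of these data known. Each of the 10 symbols matched 1 of the 55728 entries of the count table. All 10 were deep enough to be tested, among 13230 genes tested in all. The cells were LPC-HRas, a mouse liver cancer line grown in DMEM with serum and left unstimulated. The control group held 2 libraries with the genotype control (control 1 and control 2). The other group held 2 libraries of UBXN9-overexpressing cells (UBXN9 1 and UBXN9 2). UBXN9 is the product of Aspscr1 in the mouse. The vector, its promoter, what the control cells carried, whether either line was 1 clone, and whether the libraries came from separate cultures are not given in the sources used here. The p-values therefore measure the spread between these libraries, which may be technical.

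NRF2 is held in the cytoplasm by KEAP1, which passes it to a CUL3 ubiquitin ligase for degradation. Oxidants and electrophiles modify KEAP1, and NRF2 then accumulates, pairs with a small MAF protein in the nucleus and binds antioxidant response elements at genes that make glutathione, recycle thioredoxin, reduce quinones and degrade heme. In the liver these genes protect cells against reactive drug products, and the pathway is often active in liver cancer. BACH1, a heme-sensing repressor, competes for similar elements, with Hmox1 as its best known target. Since NRF2 is set mainly by the turnover of its protein, the level of its RNA and its activity need not move together.

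The totals of the libraries ran from 21814969 to 26292686 estimated counts. Levels are given as CPM, a gene's count relative to its library's total with TMM scaling, and groups were compared with edgeR's quasi-likelihood test over all genes, with an adjusted p under 0.05 as a change. Aspscr1 stood at 92.1 and 115 CPM in the controls and at 392 and 380 CPM in the UBXN9 libraries (edgeR adjusted p = 0.00144), which is the direction of the labels. Hepatocyte markers summed to between 1.04 and 1.66 CPM, and Alb, the albumin gene, was listed at 0 in all 4 libraries, so the labelled liver origin could not be read from these genes. Biliary and progenitor markers summed to between 2383 and 3201 CPM, nearly all of it Spp1. Of the 3 tested, Krt19, a biliary keratin, fell by 1.69 on the log2 scale (edgeR adjusted p = 0.0294), while Spp1 and Sox9 had 0.29 and 0.23 and did not pass. Stellate and fibroblast markers summed to 238 and 217 CPM in the controls against 369 and 442 CPM in the UBXN9 libraries. Of 6 tested 2 rose, Col1a1 (log2 fold change 2.20) and Acta2 (1.27), beside 5.06% of all genes tested. Pdgfrb and Dcn had 0.38 and 0.38, Col1a2 and Des had -0.76 and -0.47, and none of these passed. The part of such cells in the results was not tested. Lymphoid, erythroid and endothelial markers summed to at most 0.149, 3.48 and 4.38 CPM. With 2 libraries in each group the smallest two-sided p of an exact permutation test is 0.333, so none is reported for single genes.

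Promoter windows were taken from RefSeq (GRCm38.p6), from 250 bases before to 50 bases after each start. They covered 7 of the 10 genes in 9 windows, with none for Hmox1, Gclc and Gsr. The windows were searched on both strands for the antioxidant response element core TGACNNNGC and for TGACTCA, the core shared by elements of AP-1 and of small MAF partners. The motifs can overlap, as their first letters are shared. Shown here are the 250 upstream bases, 5′ to 3′ on the strand of the gene, of Osgin1 (chr8:119436897-119437146, plus strand), Nqo1 (chr8:107403206-107403455, minus strand) and Srxn1 (chr2:152105274-152105523, plus strand). Osgin1 rose, while Nqo1, on the same chromosome, and Srxn1 did not pass the test. The window of Osgin1 lies before a RefSeq start that is inside the annotated gene, downstream of its first start, and 29 of the bases shown are annotated as UTR. Capitals mark matches, and TGAGTCA is TGACTCA read on the other strand.
Osgin1: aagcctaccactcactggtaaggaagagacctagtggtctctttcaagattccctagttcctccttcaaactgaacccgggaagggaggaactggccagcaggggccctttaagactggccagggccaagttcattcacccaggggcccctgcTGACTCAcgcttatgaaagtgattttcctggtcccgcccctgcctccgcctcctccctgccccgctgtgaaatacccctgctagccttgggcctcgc
Nqo1: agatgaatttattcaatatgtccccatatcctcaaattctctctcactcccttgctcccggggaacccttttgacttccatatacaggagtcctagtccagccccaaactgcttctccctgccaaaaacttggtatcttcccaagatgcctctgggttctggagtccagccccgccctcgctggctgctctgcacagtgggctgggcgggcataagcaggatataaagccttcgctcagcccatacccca
Srxn1: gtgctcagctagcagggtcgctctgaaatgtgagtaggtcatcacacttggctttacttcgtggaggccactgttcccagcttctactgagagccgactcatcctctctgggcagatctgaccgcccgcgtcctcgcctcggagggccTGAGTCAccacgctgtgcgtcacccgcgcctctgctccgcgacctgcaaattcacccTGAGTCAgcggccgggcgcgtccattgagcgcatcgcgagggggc

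Osgin1 held TGACTCA 1 time, Srxn1 held it 2 times, and the Nqo1 window held neither motif. TGACNNNGC was found in windows of 4 of the 7 genes, namely Nfe2l2, Gclm, Txnrd1 and Srxn1, the last of them after the start and so not shown. By window it was found in 4 of 9, and TGACTCA in 2 of 9. Of all 32851 RefSeq promoter windows of 300 bases, 12.4% held TGACNNNGC and 5.2% held TGACTCA. Of the genes with a TGACNNNGC match none passed the test with edgeR (Nfe2l2 alone had an unadjusted p under 0.05, 0.0261). A match says only that these letters are in the window, and the lack of one says nothing about bases outside it.

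Hmox1, Osgin1 and Gsr rose in UBXN9-overexpressing cells, by 2.33-fold, 1.95-fold and 1.68-fold, and no member fell. Of the 10 members 3 rose, beside 5.06% of all genes tested that rose, 2.38% that fell and 7.44% that changed in either direction. As the members were chosen with earlier results known, these shares are a description only. The 3 lie on mouse chromosome 8, and so does Nqo1, which did not pass. Of the 6 members on other chromosomes edgeR called 0, as did DESeq2 and limma-voom, and 2 had an unadjusted p under 0.05. Groups did not overlap for 7 members, 6 with the UBXN9 libraries above both controls and 1 below. Of all genes tested 50.6% did not overlap, 25.0% with the UBXN9 libraries above and 25.6% below. The median log2 fold change was 0.36 over the 10 members, 0.86 over the 4 on chromosome 8 and 0.13 over the other 6, against -0.0056 over all genes tested. In bulk RNA a change in RNA per cell and a change in the share of cells that express a gene cannot be told apart.

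**Figure D1:**
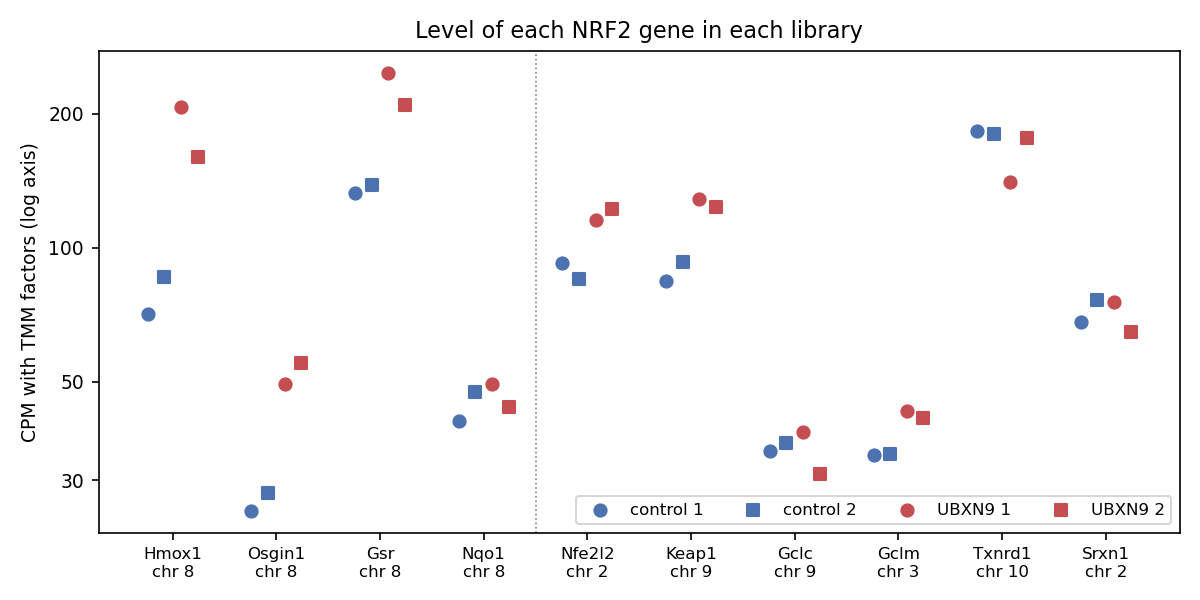
Level of the 10 genes in each library, in CPM with TMM factors on a log axis, with circles for library 1 and squares for library 2 of a group, blue for control and red for UBXN9-overexpressing. Left of the dotted line are the chromosome 8 genes, where both UBXN9 libraries lie above both controls for Hmox1 (160 and 207 against 71.1 and 86.0 CPM), Osgin1 and Gsr but not for Nqo1.

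Nfe2l2, the gene for NRF2 itself (ENSMUSG00000015839, GRCm38 chromosome 2, 75675513 to 75704641), had 92.3 and 85.0 CPM in control 1 and 2 and 115 and 122 CPM in UBXN9 1 and 2. Both UBXN9 libraries were above both controls. The log2 fold change was 0.42 (SE 0.15), and it did not pass over all genes (95% interval 0.067 to 0.78, edgeR adjusted p = 0.16). Keap1, its inhibitor (ENSMUSG00000003308, chromosome 9, 21229730 to 21239361), had 84.2 and 92.6 CPM in the controls and 128 and 123 CPM in the UBXN9 libraries. The groups again did not overlap, and the log2 fold change was 0.51 (SE 0.15) (95% interval 0.15 to 0.87, edgeR adjusted p = 0.1). Keap1 passed without UBXN9 2 (0.54, edgeR adjusted p = 0.021), and the antisense gene Gm16754 shares exonic bases with it. Neither passed with all 4 libraries and no block.

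Hmox1 encodes heme oxygenase 1, which degrades heme to biliverdin, iron and carbon monoxide (ENSMUSG00000005413, chromosome 8, 75093621 to 75100589). It stood at 1864 and 1895 counts in the controls and at 4152 and 4238 counts in the UBXN9 libraries, or 71.1, 86.0, 207 and 160 CPM. The UBXN9 libraries were both far above the controls, and UBXN9 1 was the highest. The log2 fold change was 1.22 (SE 0.19) (95% interval 0.76 to 1.68, edgeR adjusted p = 0.0122), and it ranged from 1.03 without UBXN9 1 to 1.40 without UBXN9 2. The groups of Hmox2, its constitutive relative, overlapped (log2 fold change 0.10, SE 0.18). Bach1, the repressor of Hmox1, had 21.7 and 13.1 CPM in the controls and 11.2 and 25.1 CPM in the UBXN9 libraries, with a wide spread in both groups (log2 fold change 0.06, SE 0.41).

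Macrophages express Hmox1 strongly, and their markers were therefore read in the same libraries. The 10 markers summed to 58.0 and 58.7 CPM in the controls and to 75.9 and 67.9 CPM in the UBXN9 libraries, most of it Cd14, which did not pass. The leukocyte marker Ptprc was at 0 in both controls and at 0.149 and 0.0377 CPM in the UBXN9 libraries, and the macrophage marker Adgre1 was at 0 in all but UBXN9 1, with 0.199 CPM. Clec4f and Marco, of liver macrophages, were at 0 in all 4 libraries. Csf1r, another marker of the list, had 0.458 and 0.635 CPM in the controls. It had 2.79 CPM in UBXN9 1 and 0.302 CPM in UBXN9 2, and it did not pass. All 6 markers tested had positive log2 fold changes, with a median of 0.48, beside 49.5% of all genes tested. For 4 of the 6 both UBXN9 libraries were above both controls, beside 25.0% of all genes tested. Some of these markers had few counts, with Cd163 at 5 to 16 and Mrc1 at 25 to 35 counts per library. Lyz2, a lysozyme gene, was the 1 marker of the 6 that rose, to 3.14 and 3.09 CPM. The part of such cells in the Hmox1 result was not tested.

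Osgin1 encodes an oxidative stress induced growth inhibitor (ENSMUSG00000074063, chromosome 8, 119434124 to 119446256). It had 25.6 and 28.2 CPM in the controls and 49.5 and 55.2 CPM in the UBXN9 libraries. The groups were well apart, and the log2 fold change was 0.96 (SE 0.17) (95% interval 0.57 to 1.36, edgeR adjusted p = 0.0171). With 1 library left out the log2 fold change ran from 0.88 to 1.04, and the call was lost without control 1 and without control 2. In those fits the spread rests on the UBXN9 pair. Over all genes that pair differed more than the controls (a median of 0.31 against 0.20 on the log2 scale).

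Gsr encodes glutathione reductase, which returns oxidized glutathione to its reduced form (ENSMUSG00000031584, chromosome 8, 33652523 to 33698163). It had 132 and 138 CPM in the controls and 247 and 209 CPM in the UBXN9 libraries. The groups did not overlap, and the log2 fold change was 0.75 (SE 0.16) (95% interval 0.37 to 1.13, edgeR adjusted p = 0.0393). The call was lost without control 1 (edgeR adjusted p = 0.338) and without control 2 (0.287).

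Nqo1 encodes a quinone reductase that is widely used as a readout of NRF2 (ENSMUSG00000003849, chromosome 8, 107388225 to 107403206). It had 40.9 and 47.3 CPM in the controls and 49.3 and 44.0 CPM in the UBXN9 libraries. The groups overlapped, with UBXN9 1 highest and control 1 lowest. The log2 fold change was 0.08 with a 95% interval from -0.32 to 0.48 (edgeR adjusted p = 0.859), an interval that lies below the estimates for Hmox1, Osgin1 and Gsr.

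**Figure D2:**
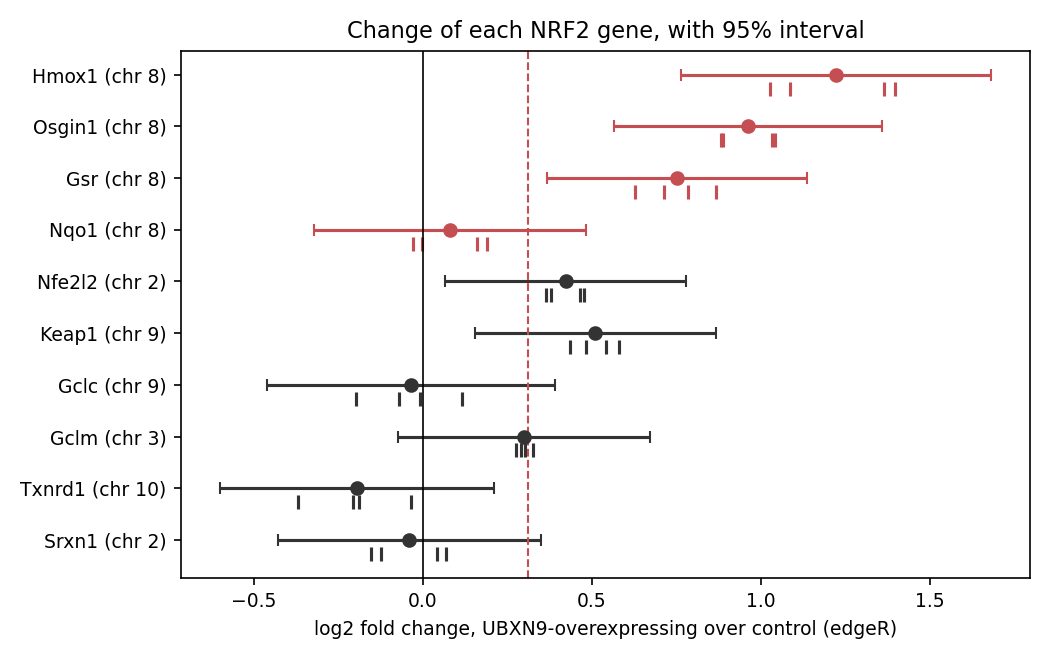
Log2 fold change of UBXN9-overexpressing over control cells for each gene with its 95% interval, chromosome 8 genes in red, others in black. Ticks under each point are the values with 1 of the 4 libraries left out, and the dashed line is the median of all tested chromosome 8 genes (0.31), below the estimates of Hmox1, Osgin1 and Gsr and above that of Nqo1.

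The 4 chromosome 8 members sat on a chromosome whose genes were higher as a whole. Over its 732 tested genes the median log2 fold change was 0.31, the highest of the 20 chromosomes compared, and 80.2% of them had a positive value. Both UBXN9 libraries were above both controls for 51.0% of the genes of chromosome 8, against 23.5% of the genes on the other chromosomes. On chromosome 8 65 genes rose and 8 fell, or 8.88% and 1.09%, against 4.79% and 2.46% elsewhere. By library, the median of chromosome 8 genes relative to the rest was -0.18 in control 1 and -0.14 in control 2, against 0.18 in UBXN9 1 and 0.15 in UBXN9 2. These values move with the rise of the 3 members, and their part in it was not tested.

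When the scaling factors were taken from chromosome 8 genes alone, so that a change is relative to that chromosome, Hmox1 had a log2 fold change of 0.92 (SE 0.17, edgeR adjusted p = 0.0246) and Osgin1 0.66 (SE 0.16, edgeR adjusted p = 0.0478). Gsr had 0.45 and no longer passed (edgeR adjusted p = 0.0829). Nqo1 had a negative value of -0.22 in that scaling and did not pass (edgeR adjusted p = 0.355). Among the 732 tested genes of chromosome 8, ordered from the highest log2 fold change, Hmox1 was at place 51, Osgin1 at 74, Gsr at 101 and Nqo1 at 544.

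**Figure D3:**
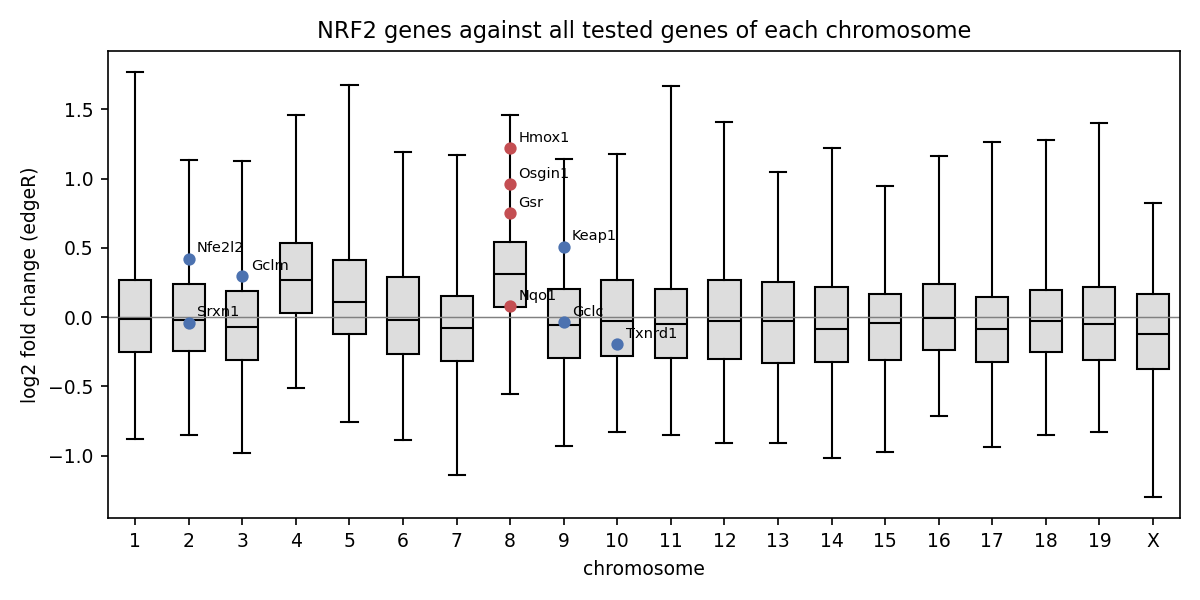
Log2 fold change of all tested genes of each chromosome (box, quartiles and median; whiskers, 5th to 95th percentile), with the 10 genes as points, red on chromosome 8 and blue elsewhere. The boxes of chromosomes 8 and 4 stand highest, with medians of 0.31 and 0.27.

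Of the 16 genes nearest to these members, 2 tested genes on either side of each, 14 had a positive and 2 a negative log2 fold change. Among the 16, 3 rose and 1 fell. Of all tested genes of chromosome 8, 80.2% had a positive value, 8.88% rose and 1.09% fell. Beside Hmox1, Tom1, an adaptor of endosomal sorting, rose (log2 fold change 0.85, edgeR adjusted p = 0.019, but 0.147 without control 1 and 0.249 without control 2). Mcm5, a subunit of the replicative helicase that lies 15.9 kb from Hmox1 start to start, had -0.18, and Hmgxb4 and Gm45899 had 0.14 and 0.17. Gm45899 turned to -1.94 without UBXN9 2 (edgeR adjusted p = 0.0196) and to -0.13 without control 2. Beside Osgin1, Necab2, the next gene, whose start lies 12.6 kb from that of Osgin1, fell by 1.03 (edgeR adjusted p = 0.0259, and 0.0813 and 0.273 without control 1 and control 2). Mlycd, the malonyl-CoA decarboxylase gene on the other side, had 1.02 and an edgeR adjusted p of 0.0573, which was 0.00968 without UBXN9 1 and 0.000903 without UBXN9 2. Hsbp1 and Mbtps1, the farther neighbours of Osgin1, had 0.22 and 0.51 and did not pass.

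Beside Gsr, Rbpms, which encodes an RNA-binding protein, rose with a log2 fold change of 1.34 (edgeR adjusted p = 0.00466). Ubxn8, another UBX-domain gene, rose with 0.93 (edgeR adjusted p = 0.041), a call lost without control 1 (0.319) and control 2 (0.258). Ppp2cb and Gtf2e2 had 0.24 and 0.22. Around Nqo1 the values of Cyb5b, Nob1 and Wwp2 were 0.31, 0.10 and 0.58, and none passed, although Wwp2 passed without UBXN9 1 (edgeR adjusted p = 0.0499) and UBXN9 2 (0.00622). Nfat5, the osmotic stress factor beside Nqo1, differed within its group, at 22.6 CPM in library 1 of the UBXN9 cells and 73.1 CPM in library 2, and its log2 fold change ran from -0.58 without UBXN9 2 to 1.12 without UBXN9 1, each past the threshold. Within 5 Mb of each member the median log2 fold change of the other tested genes was 0.26 around Hmox1 (108 genes), 0.31 around Nqo1 (116 genes), 0.31 around Osgin1 (92 genes) and 0.31 around Gsr (24 genes). Hmox1, Osgin1 and Gsr were exceeded by 8, 8 and 5 of these genes, and Nqo1 by 89.

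**Figure D4:**
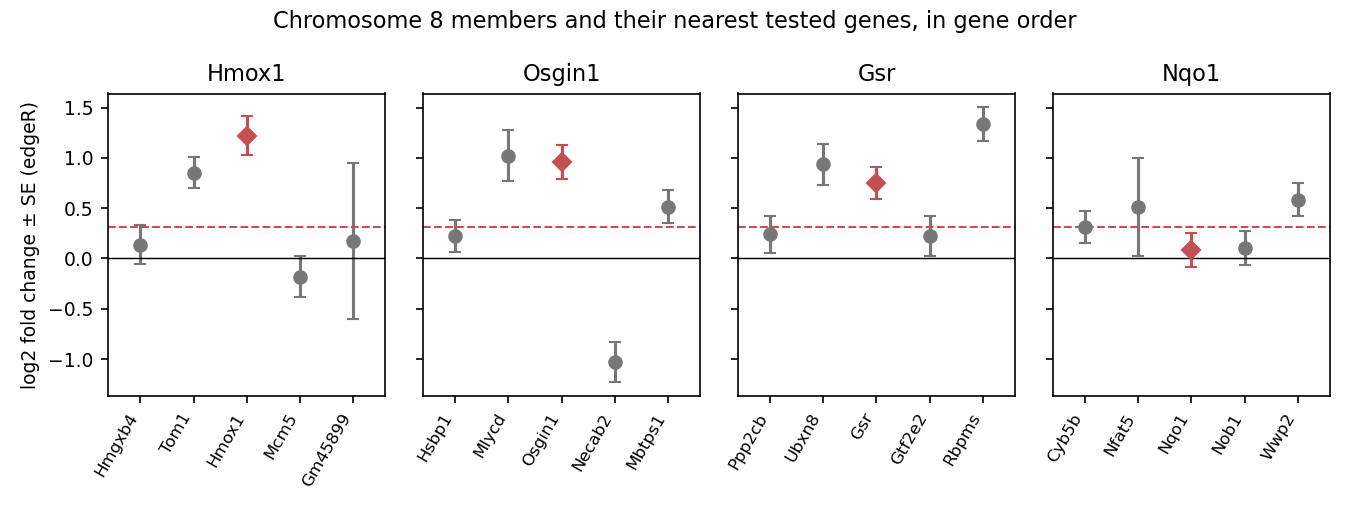
Log2 fold change with its SE for Hmox1, Osgin1, Gsr and Nqo1 (red diamonds) and the 2 nearest tested genes on each side (grey), in gene order along chromosome 8; the dashed line is the chromosome's median. Neighbours lie on both sides of the line, from Necab2 at -1.03 to Rbpms at 1.34.

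Gclc and Gclm encode the catalytic and modifier subunits of glutamate-cysteine ligase, the rate-limiting enzyme of glutathione synthesis. Gclc (ENSMUSG00000032350, chromosome 9, 77754535 to 77794485) had 35.0 and 36.4 CPM in the controls and 38.6 and 31.0 CPM in the UBXN9 libraries, which lay on either side of the controls. Its log2 fold change was -0.04 with a 95% interval from -0.46 to 0.39. Gclm (ENSMUSG00000028124, chromosome 3, 122245557 to 122270732) had 34.2 and 34.4 CPM in the controls and 43.0 and 41.5 CPM in the UBXN9 libraries. Its groups did not overlap, but the log2 fold change of 0.30 did not pass (95% interval -0.073 to 0.67, edgeR adjusted p = 0.338). Gm17494 and Gm6061 share exonic bases with Gclm, so a part of its counts is uncertain.

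Txnrd1 encodes the cytosolic thioredoxin reductase, and Srxn1 encodes sulfiredoxin, which repairs overoxidized peroxiredoxins. Txnrd1 (ENSMUSG00000020250, chromosome 10, 82833951 to 82897712) had 183 and 180 CPM in the controls and 140 and 177 CPM in the UBXN9 libraries. UBXN9 1 was the low library, and UBXN9 2 was close to the controls. The log2 fold change was -0.19 with a 95% interval from -0.60 to 0.21. Srxn1 (ENSMUSG00000032802, chromosome 2, 152105516 to 152111376) had 68.1 and 76.1 CPM in the controls and 75.6 and 64.7 CPM in the UBXN9 libraries. Its groups overlapped, and its log2 fold change was -0.04 with a 95% interval from -0.43 to 0.35. Of the 7 members that did not pass, Keap1 and Nfe2l2 had intervals that overlapped that of Hmox1 (0.76 to 1.68), and the others ended below it. Differences between genes were not tested. Intervals of this width do not show that the 7 members were unchanged.

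Levels were set in order per length, as RPKM over the union of annotated exons. In control cells Gsr (49.2 ± 1.53 RPKM, SD, n = 2) and Hmox1 (44.9 ± 6.0 RPKM) were the most abundant and overlapped in their libraries. In UBXN9-overexpressing cells Hmox1 (104.6 ± 18.9 RPKM) came before Gsr (82.8 ± 9.80 RPKM), and their libraries did not overlap. Nqo1, Txnrd1, Srxn1 and Nfe2l2 followed in control cells with means from 28.4 to 23.3 RPKM. Nqo1 and Txnrd1 did not overlap, Txnrd1 and Srxn1 did, and so did Srxn1 and Nfe2l2. Keap1 came after them with 18.8 ± 1.28 RPKM, below both libraries of Nfe2l2. In UBXN9-overexpressing cells Nfe2l2 (31.3 ± 1.27 RPKM), Nqo1, Keap1, Srxn1, Txnrd1 and Osgin1 (19.6 ± 1.5 RPKM) followed in that order, and of these neighbours only Nqo1 and Keap1 did not overlap. Osgin1 (10.1 ± 0.670 RPKM) and Gclc (9.48 ± 0.262 RPKM) overlapped in control cells, and Gclm was the lowest in both groups, with 5.45 ± 0.0182 and 6.71 ± 0.167 RPKM.

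The wider pathway was read from 8 lists that hold 114 genes, the 10 members included. The lists are of NRF2 regulators and of redox, xenobiotic, heme and metal genes. Whether each gene answers to NRF2 in these cells was not tested. Of the 87 other genes tested 7 rose and 1 fell with edgeR, or 9.20%, against 7.44% of all genes tested. Their median log2 fold change was 0.06. DESeq2 called 13 of these 87 and 1249 of all genes tested, and limma-voom called 8 and 978. Among regulators of NRF2, 1 of 13 tested genes rose and 0 fell with edgeR, and DESeq2 called 2. The gene called by edgeR was Mafk, a small MAF partner of NRF2 and of BACH1. It had 71.2 and 69.1 CPM in the controls and 244 and 204 CPM in the UBXN9 libraries. Its rise of 3.19-fold was larger than that of any of the 10 members (log2 1.67, SE 0.17, edgeR adjusted p = 0.00177). Mafk lies on chromosome 5, whose median was 0.11. The other small MAF genes, Mafg and Maff, had 0.15 and -0.04, and Sqstm1, whose product p62 sequesters KEAP1, had 0.63 without passing (edgeR adjusted p = 0.161).

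Of 12 tested genes of glutathione supply and recycling 3 rose and 0 fell with edgeR, and DESeq2 called 4. The median was 0.53. The 3 called by edgeR were Gsr, Slc6a9, a glycine transporter, and Chac1, which degrades glutathione. Slc6a9 had 83.2 and 87.0 CPM in the controls and 193 and 201 CPM in the UBXN9 libraries, a rise of 2.32-fold (edgeR adjusted p = 0.00455), and it lies on chromosome 4, whose median was 0.27. Chac1 had 22.8 and 23.8 against 52.6 and 45.3 CPM, a rise of 2.1-fold (edgeR adjusted p = 0.0123, and 0.0689 and 0.0835 without control 1 and control 2). Slc7a11, the cystine importer, is a known target of NRF2 and ATF4. It had a log2 fold change of 0.71 with an SE of 0.32 and did not pass with edgeR.

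Of 13 glutathione peroxidases and transferases edgeR called 0, as did DESeq2 and limma-voom, and 2 had an unadjusted p under 0.05. They were Gstm2, a transferase, with 0.67 and Gpx1, a peroxidase, with -0.55. Gstm2 passed without UBXN9 2 (edgeR adjusted p = 0.00155) and Gpx1 without UBXN9 1 (0.00636), and the Gstm genes are close copies whose reads may be split. Of 17 genes of the thioredoxin and peroxiredoxin system edgeR and limma-voom called 0 and DESeq2 called 1. This was Txnrd2, the mitochondrial thioredoxin reductase, with -0.82, the only gene of the list with an unadjusted p under 0.05, and it passed in edgeR without UBXN9 1 (0.00217) and without UBXN9 2 (0.0213). Prdx6 followed with -0.40. Of the 8 genes of NADPH supply none was called by any of the 3 tools and 0 had an unadjusted p under 0.05. Pgls and Idh2, those with the smallest p, had 0.43 and -0.35, and Pgls, on chromosome 8, passed without UBXN9 2 (edgeR adjusted p = 0.0111).

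Of 15 quinone and xenobiotic reductases and related genes 3 rose and 0 fell, Osgin1 among them. Aldh3a1, an aldehyde dehydrogenase, had 51.2 and 62.5 CPM in the controls and 117 and 92.9 CPM in the UBXN9 libraries, a rise of 1.85-fold (edgeR adjusted p = 0.0378, and 0.279 and 0.0937 without control 1 and control 2). Ugt1a6a, a glucuronosyltransferase, rose 2.36-fold from 6.33 and 4.90 to 11.1 and 15.5 CPM (edgeR adjusted p = 0.0427, and 0.285 without control 2). Its last exons are shared with the other Ugt1a genes, so its counts are uncertain. Of 12 genes of heme and iron handling Hmox1 rose and Abcb6, a porphyrin transporter, fell. Abcb6 had 50.9 and 59.7 CPM in the controls and 24.3 and 21.4 CPM in the UBXN9 libraries, 2.42-fold lower (log2 -1.28, SE 0.18, edgeR adjusted p = 0.00737). Fth1 and Ftl1, the ferritin chains that store iron, had 0.50 and 0.02 and did not pass.

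Of 7 superoxide dismutases, catalase and metallothioneins 2 rose and 0 fell with edgeR, and DESeq2 called 4. Sod3, the extracellular superoxide dismutase, had 22 and 17 counts in the controls, or 0.839 and 0.771 CPM, and 15.7 and 13.3 CPM in the UBXN9 libraries. It rose 17.8-fold, the largest change in the 8 lists (log2 4.16, SE 0.29, edgeR adjusted p = 0.000448). Sod3, like Mafk, lies on chromosome 5, whose median was 0.11. The cytosolic Sod1 and mitochondrial Sod2 had 0.17 and 0.57 and did not pass with edgeR. Mt2, a metal-binding metallothionein on chromosome 8, rose from 357 and 420 to 1059 and 695 CPM (2.26-fold, edgeR adjusted p = 0.0339). Its call was lost without control 1 (0.112), without control 2 (0.0574) and with scaling to chromosome 8 genes (0.0506), and the antisense gene Gm45774 shares exonic bases with it.

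**Figure D5:**
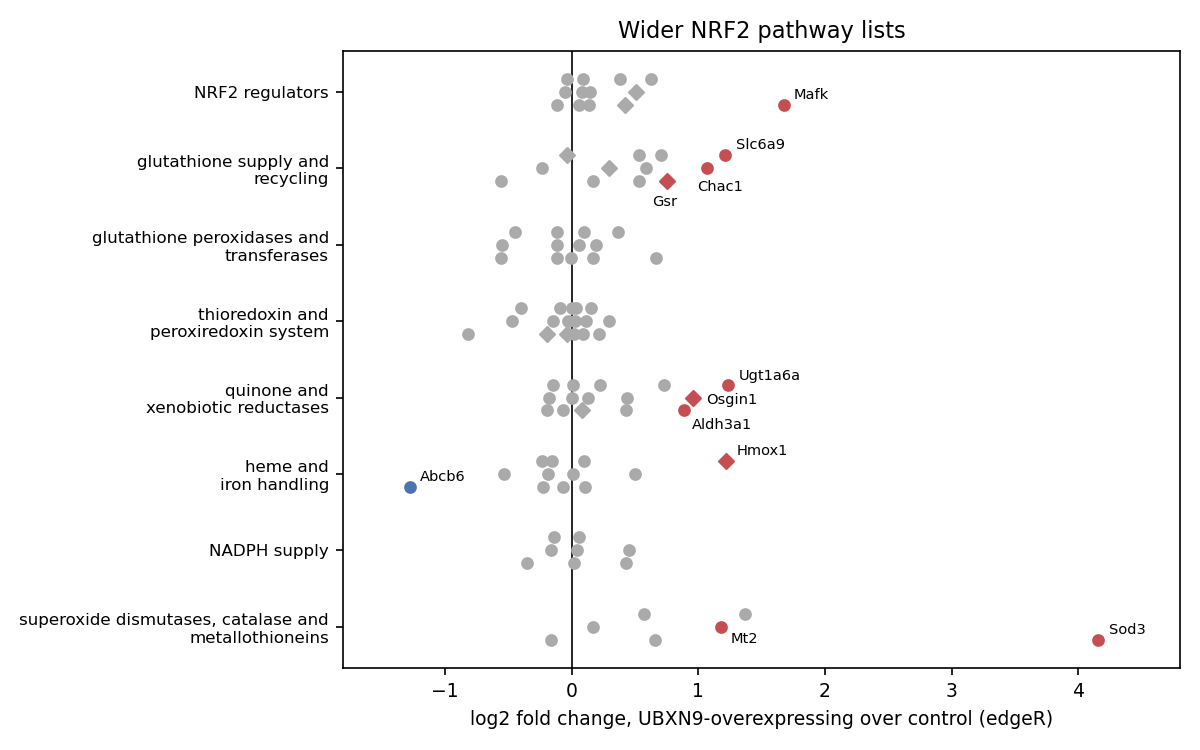
Log2 fold change of each tested gene in 8 lists of NRF2 regulators and of redox, xenobiotic, heme and metal genes. Points are red where a gene rose with edgeR, blue where it fell and grey where it did not pass. Diamonds are the 10 members (vertical offsets within a list only separate points). Of 97 genes shown 10 rose and 1 fell, with Sod3 at 4.16 and Abcb6 at -1.28 as the extremes.

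The likeness of other genes to Hmox1 was measured as the Euclidean distance between log2 CPM values centred over the 4 libraries. The nearest 3 tested genes were Ogfr, an opioid growth factor receptor gene (distance 0.045), Angpt2, an angiopoietin gene on chromosome 8 (0.059), and Usp17la, a deubiquitinase gene of a family of close copies (0.087). Ogfr had 195 and 228 CPM in the controls and 544 and 424 CPM in the UBXN9 libraries, so that UBXN9 1 was again the highest. Its call was lost without control 1 (edgeR adjusted p = 0.0695), that of Angpt2 without control 1 (0.0916) and control 2 (0.0503), and that of Usp17la without control 1 (0.1) and control 2 (0.0639). Within a distance of 0.5 lay 312 genes for Hmox1 and 6215 genes for Nqo1, and with 4 libraries such likeness is a description only. For Nqo1 the nearest were 4930558J18Rik, Dpf2 and 4930430F08Rik, none of which passed.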

How the data were processed

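RNA of 2 control and 2 UBXN9-overexpressing libraries was made into TruSeq libraries and sequenced on an Illumina HiSeq instrument, per the labels' protocols. The deposited table gives unscaled expected counts for each gene. The submitters' processing notes name the build GRCm38.p6, HTSeq and HISAT2 2.1.0; settings, annotation, strand and the treatment of shared reads are not given in the sources used here. Values were rounded to whole counts, and 241 entries outside the annotation (0.302% to 0.535% of a library) were left out. Of 55487 annotated identifiers 55227 matched GENCODE M21 (GRCm38), which gave symbols, positions and exon lengths.

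edgeR 4.0.16 in R 4.3.3 was run with TMM factors, filterByExpr and quasi-likelihood F tests (two-sided), with Benjamini-Hochberg adjustment over 13230 genes and a threshold of 0.05. SEs and 95% intervals come from its F statistic. limma 3.58.1 (voom) and DESeq2 1.42.0 were alternatives, beside other scalings, filters, no rounding, a replicate block and each library left out. Fits on 3 libraries take the lone one to vary as the complete pair does. The procedure was also run on simulated counts with a dispersion common to all genes and no shift of any chromosome. As these data differ from that setting, the run does not show how often calls here are right. Figures were drawn with matplotlib 3.10.9. Replicates differed by a median of 0.20 (control) and 0.31 (UBXN9) on the log2 scale, and no 2 libraries were identical.

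The members and lists were chosen with earlier results of these data known. Named genes were the members, Aspscr1, up to 4 called genes of each list by p or else 2 with the smallest p, the 2 nearest tested genes on each side of a chromosome 8 member, and the 3 genes most like Hmox1 and Nqo1 (log2 CPM with a prior count of 2). Hmox2, Bach1, Mafg, Maff, Sqstm1, Slc7a11, Fth1, Ftl1, Sod1, Sod2 and the single marker genes were named after their values were seen. Marker lists were macrophage, lymphoid, erythroid, hepatocyte, biliary and progenitor, stellate and fibroblast, and endothelial.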

Additional observations from a re-analysis of the deposited data

How the results depend on the processing

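Of 16 alternatives, Hmox1 kept its direction and its call in 16, Osgin1 its call in 14 and Gsr in 12, and none of the 3 changed sign. Nqo1, Gclc, Gclm, Txnrd1 and Srxn1 passed in none, Keap1 in 2 and Nfe2l2 in 1. The count of members changed was 3, and between 1 and 4 with each library left out; for the wider pathway the count was 11, and between 5 and 25, and for all genes 984, and between 508 (without control 2) and 2782 (without UBXN9 2). Without a UBXN9 library the spread rests on the controls, which differed less. The chromosome 8 median of 0.31 was 0.26 with upper-quartile factors, 0.22 with library size alone, 0.35 with TMM factors without chromosomes 4 and 8, and 0.29 to 0.32 with a library left out. Scaling to chromosome 8 genes set it to 0.0090 by construction and shifted the median of all genes by -0.30, so that 1626 genes changed, 476 higher and 1150 lower, against 669 higher and 315 lower. Without a filter on low counts 1827 genes changed. With a library left out Gm45899 ran from -1.94 to 0.96 and Nfat5 from -0.58 to 1.12; the cause was not tested.

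The replicate numbers did not pair the libraries (the differences between replicate 1 and 2 in the groups had a Pearson correlation of -0.37 across genes, which are not independent). With a replicate block 932 genes and 2 members changed, Gsr not being called (edgeR adjusted p = 0.119), and 10 genes of the wider pathway. A crossed replicate block, added after the data were seen, gave 3137 genes, 5 members and 33 genes of the wider pathway.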
